A study of Mus musculus with 4 samples.

Results

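The fibroblast growth factor (FGF) receptors and MAPK feedback genes comprise 10 genes of 25072 symbols in the series, matched by their symbols. They are the receptors Fgfr1 and Fgfr4, the ligands Fgf2, Fgf7 and Fgf21, the feedback inhibitors Spry1, Spry2, Spry4 and Dusp6, and the transcription factor Etv5. All 10 had an entry in each of the 4 RNA-seq libraries, with a level and a status of OK. The libraries were made from C2C12 cells, mouse myoblasts that can be grown as a line and that fuse into multinucleate myotubes when serum is lowered. Total RNA depleted of rRNA was sequenced from myoblasts (MB, labelled as 24 h before differentiation medium, DM -24 h) and from myotubes (MT, DM 72 h), and polyA RNA from cells at DM 48 h transfected with siRNA against hnRNPL (si-hnRNPL) or with the control siRNA (si-NC). No other allele or agent is named for these cultures, and each group is a single library of a single line, so differences below lack a replicate check and carry no p-value.

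FGFs bind receptor tyrosine kinases on the cell surface, and the receptors signal through RAS, RAF and MEK to the kinase ERK. ERK signaling induces its own inhibitors: the Sprouty proteins, which dampen signaling between receptor and ERK, and dual-specificity phosphatases such as Dusp6, which removes phosphate from ERK. It also induces the Ets factors Etv1, Etv4 and Etv5, so that the mRNAs of these genes are commonly read as a record of pathway activity. In myoblasts, FGF signaling is known to favor proliferation and to hold back differentiation.

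Levels are given as FPKM, the authors' fragments per kilobase of transcript and per unit of library size, with the deposited 95% interval. This interval holds the error of counting and assigning fragments inside 1 library. Changes are log2((FPKM + 1) ratio), which understates the change of genes at low level, and an absolute value of 0.58 or more was counted as a difference. The widths of the intervals imply about 14592500 fragments in si-hnRNPL, the shallowest library, 21341100 in si-NC, 54442400 in MT and 59960200 in MB. Myog, the regulator switched on in differentiating myoblasts, had an FPKM of 0.695 in MB, 251 in MT, 175 in si-NC, then 249 in si-hnRNPL. Of 11 symbols listed as markers of fat, bone, vessel and immune cells, 10 had an entry. The summed FPKM of these 10 lay between 1.51 and 2.16, with Plin1 at 0 in all 4 libraries. Only Cd68 in MB (1.13) and Bglap in MT (1.09) and si-hnRNPL (1.03) reached an FPKM of 1. Hnrnpl, the targeted gene, had an FPKM of 111 in MB, 63.0 in MT, 95.1 in si-NC, then 85.9 in si-hnRNPL. In the library labelled si-hnRNPL its mRNA thus stood at 90.4% of the control, and every direction given for this comparison rests on the label.

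Between MB and MT the genes went different ways. Fgf21, Spry1, Fgfr4 and Spry2 were higher in MT by 0.58 or more, Spry4, Dusp6 and Etv5 were lower by as much, and Fgfr1, Fgf2 and Fgf7 stayed within it. Thus 7 of 10 were counted, against 44.0% of the 11816 named entries whose FPKM reached 1 in MB or MT and 21.5% of all 24850. All 10 genes passed that level. By direction, 15.4% of the 11816 entries were higher and 28.6% lower. The 95% intervals of the libraries did not overlap for 8 of the 10, which is close to the 86.0% of the 11816, so at this depth an interval says little of whether a gene stands out. The median log2 change of the 10 genes was 0.23, and that of the 11816 entries -0.20.

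The scale of this comparison was itself shifted. The median log2 change was -0.23 over the 10791 entries whose FPKM reached 1 in each of MB and MT. Relative to that median Fgfr1 also passed 0.58 (0.76) and Etv5 no longer did (-0.46), so that 5 genes were higher and 2 lower in place of 4 and 3, against 22.8% and 18.7% of the 11816 entries. In bulk RNA, fewer cells that express a gene and less of its RNA per cell cannot be told apart.

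**Figure D1:**
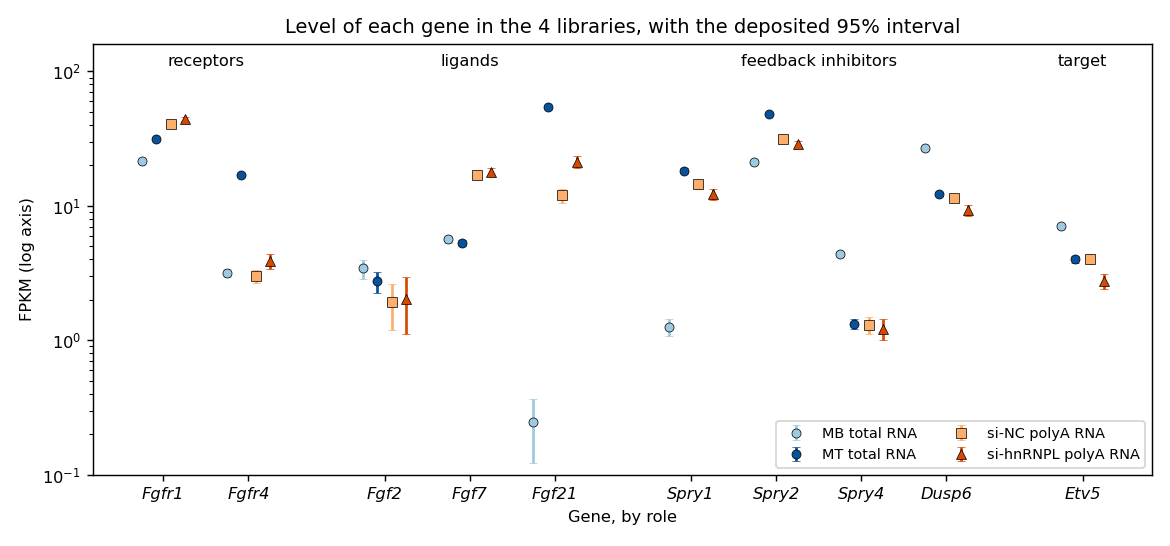
FPKM on a log axis for each of the 10 genes in the 4 libraries (1 library per group), with bars for the deposited 95% interval. Fgf21 spans the widest range, from 0.245 in MB to 54.3 in MT, and the bars of Fgf2 are wide in every library.

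Fgfr1, the main FGF receptor of myoblasts (chromosome 8, 26629231 to 26686190, plus strand of mm9), was the most abundant receptor in all 4 libraries. Its FPKM was 21.6 (21.0 to 22.1) in MB, 31.6 (30.9 to 32.3) in MT, 40.6 (39.2 to 42.0) in si-NC, then 44.1 (42.4 to 45.9) in si-hnRNPL. MT exceeded MB 1.47-fold (interval 1.42 to 1.51), a log2 change of 0.53 that lies just inside the limit and above it once the shift of the median is taken out. Gm16159 lies within the Fgfr1 locus on the opposite strand, at an FPKM of at most 0.370 in any library.

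Fgfr4, the receptor typical of differentiating myogenic cells (chromosome 13, 55254179 to 55270120, plus strand), had an FPKM of 3.19 (2.97 to 3.42) in MB, 17.1 (16.6 to 17.6) in MT, 3.0 (2.66 to 3.34) in si-NC, then 3.87 (3.38 to 4.35) in si-hnRNPL. MT stood 5.35-fold (4.95 to 5.78) above MB, a log2 change of 2.11 that ranked 269th among the 11816 entries. Its level in the polyA libraries at DM 48 h was close to that of MB, but library type, time and transfection differ and cannot be told apart.

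Fgfr1 and Fgfr4 together made up most of the receptor mRNA, and their balance differed between libraries. Of the summed FPKM of Fgfr1 to Fgfr4, which are scaled by length and so can be added, Fgfr4 took 11.3% in MB, 34.0% in MT, 6.73% in si-NC and 7.87% in si-hnRNPL. Fgfr2 went the other way, from an FPKM of 2.78 in MB to 0.670 in MT, a log2 change of -1.18 (-0.95 relative to the median). Fgfr3 had 0.810 and 0.893, with overlapping intervals. Fgfrl1, a receptor without a kinase domain, had 11.5 and 8.43, a log2 change of -0.40.

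Among the ligands, Fgf21 had by far the greatest difference. This hormone of the FGF family (chromosome 7, 52869260 to 52870860, minus strand) is released by liver and by stressed muscle. Its FPKM was 0.245 (0.123 to 0.368) in MB, on 16.0 implied fragments, and 54.3 (52.5 to 56.1) in MT. The ratio was 222 (134 to 366), and the log2 change of 5.47 ranked 23rd among the 11816 entries. In the polyA libraries it had 12.0 (10.5 to 13.4) in si-NC, then 21.3 (19 to 23.7) in si-hnRNPL. Fgf21 was thus the lowest of the 10 genes in MB and the highest in MT. Klb, the coreceptor that Fgf21 needs to act on a cell, had an FPKM of at most 0.0668 in any library.

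Fgf2, a mitogen for myoblasts (chromosome 3, 37247575 to 37303752, plus strand), had an FPKM of 3.43 (2.87 to 3.98) in MB against 2.74 (2.26 to 3.23) in MT. Its value rested on 152 and 128 implied fragments, few for its level, and the intervals overlapped. The log2 change was -0.24, and -0.01 relative to the median, so no direction can be given. Nudt6, which lies 152 bp beyond it on the opposite strand, had 6.99 and 5.97. Whether the counting used strand is not given in the sources used here.

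Fgf7, which acts mainly on epithelial receptors (chromosome 2, 125860394 to 125916921, plus strand), had 5.64 (5.31 to 5.97) in MB and 5.30 (4.99 to 5.61) in MT. These intervals overlapped as well, and the log2 change of -0.08 turned to 0.15 relative to the median. The polyA libraries held more of it, 16.8 (16.0 to 17.7) in si-NC, then 18.0 (16.8 to 19.1) in si-hnRNPL. Library type, time and transfection differ there too. Its locus lies within that of Fam227b, whose FPKM was at most 0.0610.

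The secreted ligands as a family showed the weight of Fgf21. The FPKM of 18 ligands summed to 10.5 in MB, of which Fgf7 made up 53.7%, Fgf2 32.6% and Fgf21 2.33%. In MT they summed to 63.7, with 85.3% from Fgf21, 8.32% from Fgf7 and 4.31% from Fgf2. None of the other 15 ligands reached an FPKM of 1 in MB or MT. In the polyA libraries Fgf10 did so, with 6.44 in si-NC, then 6.46 in si-hnRNPL, and Fgf5 had 0.727 and 1.18.

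**Figure D2:**
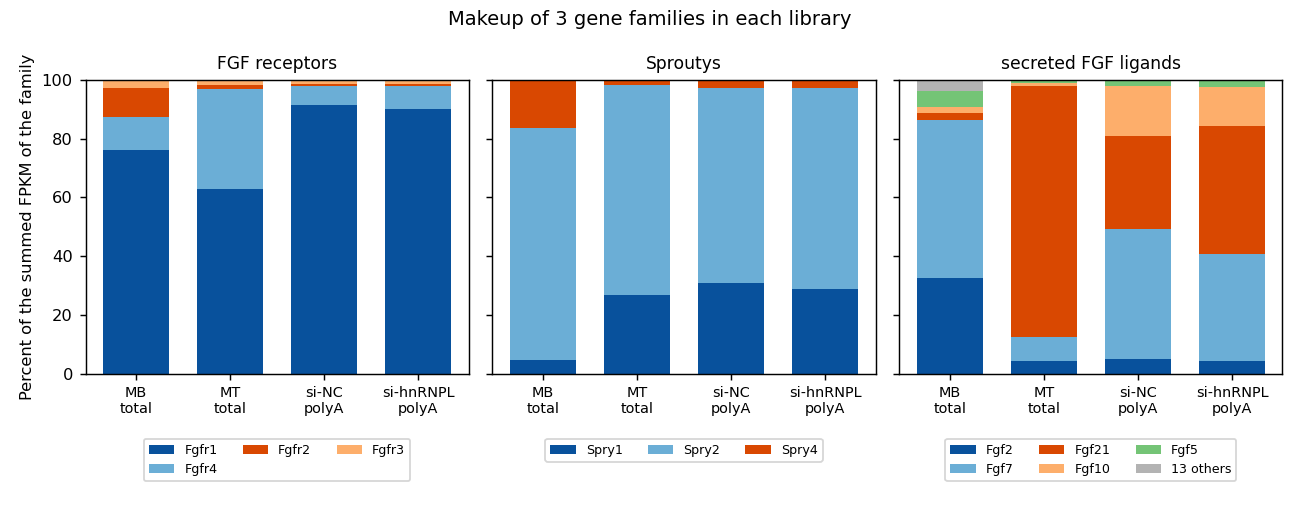
Stacked bars give the percent of the summed FPKM that each gene makes up in 3 families (4 receptors, the Sproutys and 18 secreted ligands) in each of the 4 libraries. Fgf21 takes 2.33% of the ligand bar in MB and 85.3% in MT, and Spry4 shrinks from 16.4% of the Sprouty bar to 1.96%.

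The Sproutys split. Spry1 (chromosome 3, 37538869 to 37543521, plus strand) had an FPKM of 1.26 (1.08 to 1.44) in MB, 18.2 (17.5 to 19) in MT, 14.5 (13.4 to 15.5) in si-NC, then 12.2 (11.1 to 13.3) in si-hnRNPL. MT was 14.5-fold (12.4 to 16.8) above MB, a log2 change of 3.09 that ranked 116th. The polyA values also lay above that of MB, but library type, time and transfection differ between them and cannot be told apart.

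Spry2 (chromosome 14, 106291164 to 106296036, minus strand) had 21.1 (20.4 to 21.9) in MB, 48.4 (47.3 to 49.5) in MT, 31.3 (29.9 to 32.7) in si-NC, then 28.6 (27.0 to 30.3) in si-hnRNPL. It was the most abundant Sprouty throughout, and its log2 change between MB and MT was 1.16.

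Spry4 (chromosome 18, 38745919 to 38760922, minus strand) went down where its relatives went up. It had 4.39 (4.17 to 4.61) in MB, 1.33 (1.21 to 1.45) in MT, 1.29 (1.11 to 1.48) in si-NC, then 1.22 (0.997 to 1.44) in si-hnRNPL. MB was 3.30-fold (2.98 to 3.65) above MT, a log2 change of -1.21, and -0.98 relative to the median. The 3 Sproutys kept these directions under each of the 7 alternatives tried for single genes. Among these, other pseudocounts and the summing of rows with the same symbol cannot change a direction. The centring and the scalings raise MT over MB. For Spry1 and Spry2 only the adjustment for length and GC content could thus have turned the direction. Spry3 is listed at 0 in every library.

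Dusp6 (chromosome 10, 98725865 to 98730123, plus strand) was the most abundant of the 10 genes in MB, at 26.7 (26.0 to 27.4). It had 12.3 (11.8 to 12.7) in MT, 11.5 (10.8 to 12.2) in si-NC, then 9.28 (8.48 to 10.1) in si-hnRNPL. MB exceeded MT 2.18-fold (2.08 to 2.28), a log2 change of -1.06 and of -0.83 relative to the median. The polyA values lay below that of MB too, with the same limit on that comparison.

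Etv5, an Ets transcription factor (chromosome 16, 22381386 to 22439643, minus strand), had 7.04 (6.74 to 7.35) in MB, 4.01 (3.78 to 4.23) in MT, 4.04 (3.68 to 4.40) in si-NC, then 2.76 (2.39 to 3.13) in si-hnRNPL. The log2 change between MB and MT was -0.68, the smallest of the 3 decreases. MT and si-NC, which differ in time and library type, gave nearly the same value.

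**Figure D3:**
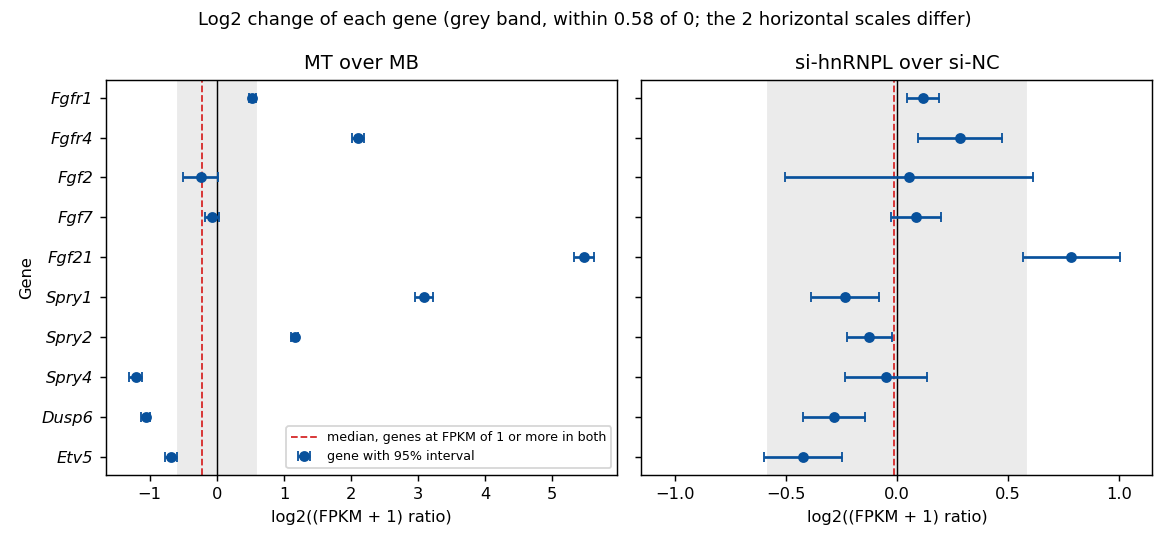
Log2((FPKM + 1) ratio) of each gene with its 95% interval, for MT over MB on the left and si-hnRNPL over si-NC on the right, on different horizontal scales. The left panel spreads from -1.21 (Spry4) to 5.47 (Fgf21), and in the right panel only the Fgf21 point lies outside the grey band of 0.58.

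The order of the levels differed between libraries. In MB it ran Dusp6, Fgfr1, Spry2, Etv5, Fgf7, Spry4, Fgf2, Fgfr4, Spry1 and Fgf21, and the neighbors Fgfr1 and Spry2, and Fgf2 and Fgfr4, had overlapping intervals. In MT it ran Fgf21, Spry2, Fgfr1, Spry1, Fgfr4, Dusp6, Fgf7, Etv5, Fgf2 and Spry4, where only Spry1 and Fgfr4 overlapped. In si-NC Fgfr1 and Spry2 led and Fgf2 and Spry4 were last, with overlaps between Fgf21 and Dusp6 and between Fgf2 and Spry4. In si-hnRNPL the overlaps were those of Fgf21 with Fgf7, of Etv5 with Fgf2 and of Fgf2 with Spry4.

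To show the start regions of genes that were higher or lower together, the 250 bases before the RefSeq start are printed for Fgf21, Fgfr4 and Spry1, the 3 with the largest increases, and for Dusp6, the most abundant gene that decreased. RefSeq windows (GRCm38.p6) were found for 8 of the 10 genes, and each printed window occurs without a mismatch in mm9, where it ends next to the locus in the deposited tables. Capitals mark the E-box CANNTG, the motif that MyoD and other basic helix-loop-helix proteins bind, and TGATGCAA, a composite site of C/EBP and ATF proteins, searched on both strands.
Fgf21, mm9 chr7:52870861-52871110, minus strand: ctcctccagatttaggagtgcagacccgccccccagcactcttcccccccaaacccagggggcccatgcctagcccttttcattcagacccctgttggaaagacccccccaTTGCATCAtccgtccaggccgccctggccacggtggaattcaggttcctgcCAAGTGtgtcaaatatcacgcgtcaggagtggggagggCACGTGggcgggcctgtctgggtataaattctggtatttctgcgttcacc
Fgfr4, mm9 chr13:55253929-55254178, plus strand: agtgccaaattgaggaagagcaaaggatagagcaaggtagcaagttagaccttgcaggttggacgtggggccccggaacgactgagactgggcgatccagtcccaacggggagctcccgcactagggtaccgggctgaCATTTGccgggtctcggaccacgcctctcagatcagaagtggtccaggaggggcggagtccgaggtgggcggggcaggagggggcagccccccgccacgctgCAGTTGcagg
Spry1, mm9 chr3:37538619-37538868, plus strand: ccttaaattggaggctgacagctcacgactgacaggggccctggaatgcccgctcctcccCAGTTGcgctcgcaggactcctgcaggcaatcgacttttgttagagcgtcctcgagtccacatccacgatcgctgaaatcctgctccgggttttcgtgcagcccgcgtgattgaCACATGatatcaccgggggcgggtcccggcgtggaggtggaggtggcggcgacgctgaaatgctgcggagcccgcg
Dusp6, mm9 chr10:98725615-98725864, plus strand: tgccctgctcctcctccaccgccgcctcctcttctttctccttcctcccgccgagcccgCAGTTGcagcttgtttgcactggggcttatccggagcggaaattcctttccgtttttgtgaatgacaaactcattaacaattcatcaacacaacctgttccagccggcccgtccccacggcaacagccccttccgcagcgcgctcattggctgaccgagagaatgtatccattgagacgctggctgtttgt
CANNTG occurred in each of the 4 windows and in 66.2% of all 32851 RefSeq windows, so its presence does not set these genes apart. TGATGCAA, read on the opposite strand and beginning 139 bases before the start of Fgf21, was found in 0.791% of all windows and in none of the other 3 shown; the motifs do not overlap, and a match describes letters, not binding.

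The other genes of the pathway were read from lists of receptors, coreceptors, ligands, the RAS-ERK core, feedback inhibitors and ERK targets. Of the 59 listed genes whose FPKM reached 1 in MB or MT, 5 were higher in MT by 0.58 (8.47%) and 17 were lower (28.8%), against 15.4% and 28.6% of the 11816 entries. The share of lower genes was thus that of all entries. The balance depended on the scale, with 9 higher and 15 lower relative to the median (22.8% and 18.7% of all entries), and 14 higher and 11 lower when FPKM were scaled to the sum over loci above 1000 bp (32.1% and 11.7% of all entries).

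The feedback inhibitors beside Spry1, Spry2, Spry4 and Dusp6 gave 1 gene higher and 4 lower of 14 measured. Among the 12 at an FPKM of at least 1 the lower genes were 33.3%, near the 28.6% of all entries, and the median was -0.26. After centring or scaling 3 of the 12 were lower (25%). The share of all entries was then 18.7% after centring, 17.6% with upper quartile scaling and 11.7% with the sum over loci. Dusp5, a nuclear ERK phosphatase, had an FPKM of 15.4 in MB against 1.71 in MT (log2 change -2.59). Dusp9 had 9.66 and 1.32 (-2.20). Dusp4 had 35.4 and 9.97 (-1.73). Dusp7 had a log2 change of -0.59, and of -0.37 relative to the median. Dusp6 and these 4 relatives summed to an FPKM of 98.9 in MB against 32.8 in MT, and the share of Dusp6 was 27.0% in MB and 37.5% in MT. Il17rd, a membrane inhibitor of FGF signaling, was the gene that was higher (1.33 and 2.68, log2 change 0.66).

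The ERK targets beside Etv5 gave 0 genes higher and 9 lower of 18 measured, which is 52.9% of the 17 at an FPKM of at least 1, against 28.6% of all entries. Relative to the median 2 were higher and 8 lower (47.1%, against 18.7% of all entries), and with the sum over loci 3 were higher and 6 lower (35.3%, against 11.7%). Fosl1, an AP-1 subunit, had an FPKM of 38.3 in MB against 2.36 in MT (log2 change -3.55). Etv4, the Ets factor most like Etv5, had 29.0 and 2.88 (-2.95). Ccnd1, the cyclin D that carries growth factor signals to the cell cycle, had 113 and 18.8 (-2.53). Ier3 and Myc had log2 changes of -1.75 and -1.59. Etv1 went the other way, with 1.67 in MB and 2.92 in MT, a log2 change of 0.55, and 0.78 relative to the median. Etv4 thus changed more than Etv5, and the share of Etv5 in the summed FPKM of Etv1, Etv4 and Etv5 was 18.7% in MB and 40.8% in MT. Egr1, an immediate early target of ERK, had 8.25 and 8.15. The list also takes in the transcription factors Elk1, Elk3 and Srf, whether or not ERK induces their mRNA. Elk3 (-1.18) and Srf (-0.94) were among the 9 lower genes, and Elk1 stayed within 0.58 (0.24).

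Most genes of the signaling core between receptor and target stayed within 0.58 in MT over MB. Of 19 adaptors and kinases 1 was higher (5.26%) and 2 were lower (10.5%), against 15.4% and 28.6% of the 11816 entries. Their median log2 change was -0.17 (0.06 relative to the median of all genes). With the sum over loci 6 were higher (31.6%) and 0 lower, against 32.1% and 11.7% of all entries. As deposited, Hras and Nras were lower (-0.99 and -0.87) and Araf was higher (0.67). Mapk3, an ERK kinase, had an FPKM of 29.5 in MB against 22.1 in MT (-0.40). Among 11 coreceptors, Sdc2 and Ncam1 were higher (1.45 and 1.06) and Sdc3 was lower (-2.34). Fgf11, a member of the family that stays inside the cell, had 1.91 in MB and 7.76 in MT (1.59).

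**Figure D4:**
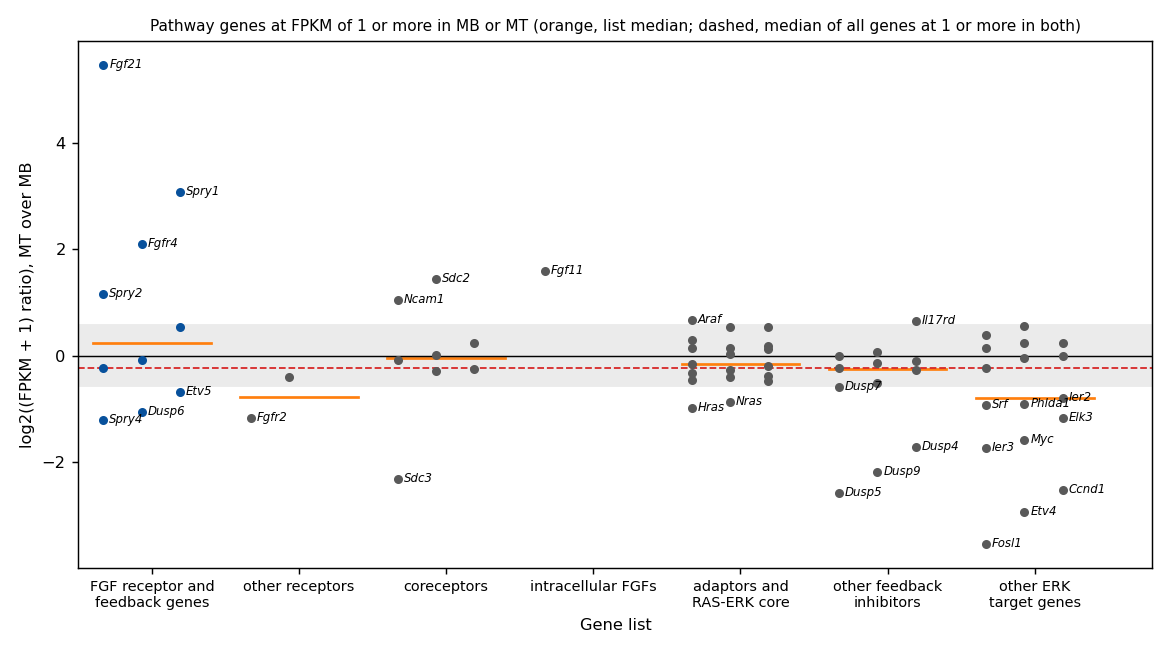
Each point is a gene with an FPKM of at least 1 in MB or MT, placed by its log2((FPKM + 1) ratio) in MT over MB and grouped by list; names mark those past 0.58. The 10 FGF receptor and feedback genes spread widest, while the decreases of the other phosphatases and ERK targets reach -3.55 (Fosl1).

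The si-hnRNPL and si-NC libraries were close to each other in these genes. Fgf21 alone passed 0.58, so 1 of 10 was counted, against 2.33% of the 11370 named entries whose FPKM reached 1 in si-NC or si-hnRNPL (1.10% of all 24992). By direction, 1.44% of the 11370 were higher and 0.888% lower. Its log2 change was 0.79 (0.57 to 1.00), a ratio of 1.78 (1.52 to 2.1), which ranked 65th of 11370. The median over the 10 genes was 0.0029, beside -0.010 for the 11370 entries. The intervals did not overlap for 6 of the 10, against 33.6% of the 11370.

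Below the limit, both receptors lay above 0 and the inhibitors and Etv5 below it, while the sign of Fgf2 and Fgf7 was not held under all alternatives. Fgfr1 had a log2 change of 0.12 (0.04 to 0.19) and Fgfr4 one of 0.28 (0.10 to 0.47). Fgf7 (0.09) and Fgf2 (0.06) had intervals that include 0. Etv5 had -0.42 (-0.60 to -0.25), the 300th lowest of 11370, Dusp6 had -0.28 (-0.42 to -0.14) and Spry1 had -0.23 (-0.39 to -0.08). Spry2 (-0.12, -0.23 to -0.02) had overlapping FPKM intervals, and Spry4 (-0.05) had an interval that includes 0. The 5 inhibitors and targets were below 0 under each of 7 alternatives. Other pseudocounts and the summing of rows cannot change a sign. Centring took out a median of only -0.011, and the sum over loci lowered all 5. Upper quartile scaling left Spry4, the value nearest 0, at -0.03. Only the adjustment for length and GC content could thus have changed a sign. Of the other feedback inhibitors with an FPKM of at least 1, 5 lay above the median of all genes and 8 below it, and of the other ERK targets 8 lay above and 9 below. Of the 61 genes of all the lists with an FPKM of at least 1, 0 were higher by 0.58 and 1 was lower (1.64%). The shares of the 11370 entries were 1.44% and 0.888%. The lower gene was Ccnd1, with 31.9 in si-NC, then 20.4 in si-hnRNPL (-0.62). Etv4 had -0.46 and Dusp9 0.40. With 1 library on each side the data cannot show whether differences of this size recur.

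Gene structure moved with this comparison. Across 10061 protein-coding genes the log2 change had a Spearman rho of -0.45 with transcript length and of 0.42 with GC content, over genes that are no independent replicates of each other. Fgf21 has the shortest transcript of the 10 genes, 930 bases. When the median change in bins of length and GC content was subtracted, the log2 change of Fgf21 was 0.52, below the limit, which 1.13% of these genes then passed. Etv5 (-0.41), Dusp6 (-0.27), Fgfr1 (0.12) and Fgfr4 (0.22) moved little, and Fgf2 (1240 bases) went from 0.06 to -0.16. Some muscle genes moved with it too. Of 9 muscle markers measured, 2 passed 0.58 upwards, Ckm (45.0 in si-NC, then 74.3 in si-hnRNPL, 0.71) and Acta1 (0.61), and 0 passed it downwards, with a median of 0.36. Myog had 0.51 and Myf5 -0.40. After the adjustment for length and GC content Ckm had 0.50, Acta1 0.44 and Myog 0.37, so neither Ckm nor Acta1 then passed the limit. The part of muscle maturation, of depth and of gene structure in the Fgf21 value was not tested beyond that adjustment.

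**Figure D5:**
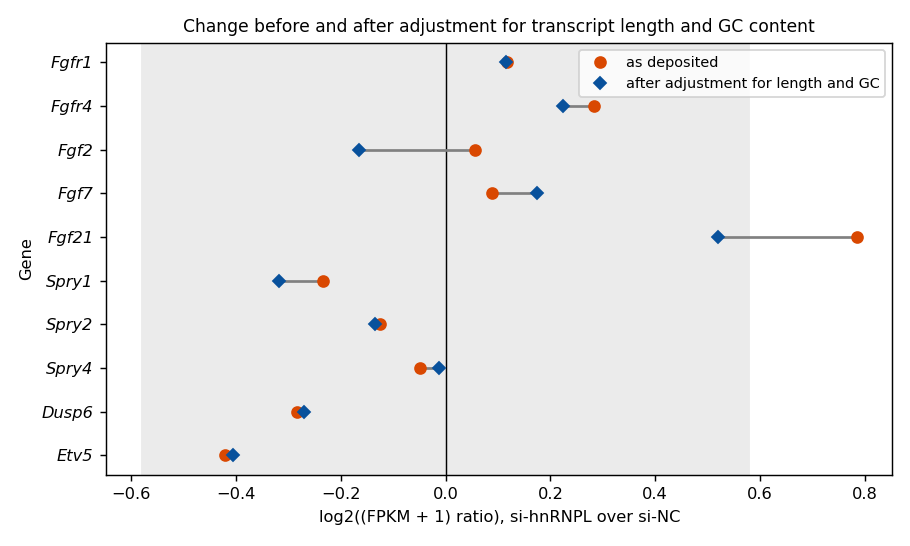
Log2((FPKM + 1) ratio) of each gene in si-hnRNPL over si-NC, as deposited (circles) and after subtracting the median change in bins of transcript length and GC content (diamonds). Fgf21 moves from 0.79 to 0.52, into the grey band within 0.58 of 0.

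MT total RNA and si-NC polyA RNA differ in library type, time in DM and transfection, which cannot be told apart, so their levels are only set side by side. Etv5, Spry4 and Dusp6 were nearly equal, with ratios of total to polyA of 0.992, 1.03 and 1.07. Fgfr4 was 5.70 times and Fgf21 4.55 times higher in MT total RNA. Fgf7 was 3.18 times higher in si-NC polyA RNA, and Fgf10, another ligand of the same receptor form, 11.0 times higher.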

How the data were processed

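The deposited tables hold FPKM values with 95% intervals, which the authors made by trimming reads, mapping them to mm9 with TopHat2 and estimating abundance with Cufflinks, for 1 library per group and 4 in all. Rows were matched by symbol. Locus starts were counted from 1. Fragments implied by an interval are (2 x FPKM / half-width) squared. In the polyA tables these were mostly not whole, so no count test was run. Intervals of a change add both half-widths in quadrature, and intervals of ratios were computed on the log scale. Transcript length and GC content came from the longest protein-coding transcript in GENCODE, and medians in 20 bins of each were subtracted over 3 rounds. The genes and lists were chosen with earlier results of these data known. Beside all 10 genes, the text names up to 5 genes per list that passed 0.58 at an FPKM of at least 1, the receptors, Mapk3, overlapping genes, Hnrnpl and muscle markers, and an item that this rule covers is not reported here. Klb, Egr1, Etv1, Fgf5, Fgf10, Cd68, Bglap, Etv4 and Dusp9 in si-hnRNPL and the promoter motifs were chosen after their values were seen. The calls of change, the intervals of a change and the adjustment for length and GC content were tested on simulated data, and the other steps were not. All steps ran in Python 3.11.15 (matplotlib 3.10.9, scipy 1.17.1, pandas 2.3.3, numpy 2.4.6). Other pseudocounts, scalings, filters and a log2 limit of 1 were tried as alternatives.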

Additional observations from a re-analysis of the deposited data

How the results depend on the processing

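Between MB and MT the number of the 10 genes past 0.58 stayed at 6 or 7 under all 9 alternatives. The FPKM filter and the summing of rows with the same symbol could not change it. The split of 4 higher and 3 lower became 5 and 2 after centring or upper quartile scaling. It became 5 and 1 with the sum over loci above 1000 bp. Fgf21, Spry1, Fgfr4, Spry2 and Spry4 passed 0.58 on the same side under each of the 7 alternatives that apply to single genes. For the 4 higher genes, smaller pseudocounts, centring and the scalings only raise the change, and the summing of rows leaves it as it is. Only the adjustment for length and GC content could have lowered these 4. Dusp6 was at -0.54 when FPKM were scaled to the sum over loci above 1000 bp, and Etv5 was inside 0.58 with that sum (-0.22), after centring (-0.46) and with upper quartile scaling (-0.44). The median of the 10 genes was 0.45 after centring, 0.48 with upper quartile scaling and 0.71 with that sum, against 0.23. In the pathway lists 40 genes passed with a pseudocount of 0.01 and 14 at a log2 change of 1, against 22, and with the sum over loci the split turned from 5 higher and 17 lower to 14 and 11. Between si-hnRNPL and si-NC, 0 of the 10 genes passed after adjustment for length and GC and 0 at a log2 change of 1, against 1. In the lists 5 genes passed with a pseudocount of 0.1, 12 with 0.01, 2 when scaled to the sum and 0 at a log2 change of 1, against 1. The list counts of both comparisons take in genes with an FPKM below 1, whose change grows as the pseudocount shrinks. The share of all entries at these pseudocounts and at a log2 limit of 1 is not given here. Fgf2 and Fgf7 changed sign under some scalings in both comparisons, and Fgf2 also under the adjustment between si-hnRNPL and si-NC; the causes were not tested. No paired analysis was possible because each group is 1 library, and for the same reason no library could be left out. Depth limits Fgf2, with 152 implied fragments or fewer in each library, and Fgf21 in MB, with 16.0.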

Other observations

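From the total RNA reads, 13 assembled transcript units overlap 1 of the 10 genes or lie within 5 kb, at 6 of them, and 9 had a higher FPKM in MT than in MB. A pair of them lies within Fgfr4 (chromosome 13, 55254737 to 55256365 and 55256456 to 55256711) and went from an FPKM of 0.361 to 3.27 and from 0.247 to 3.44, which are ratios of 9.06 and 13.9 beside 5.35 for the gene. These were the only 2 of the 13 units higher by 0.58, and 0 were lower by as much. Of all 36780 units 19.8% were higher and 3.09% lower by 0.58. The share of all units with any higher FPKM in MT is not given here, so the count of 9 stands without a comparison. The unit 2252 bp beyond Spry1 went from 0.0312 to 0.506, and Fut1, 2116 bp from Fgf21, from 0.00997 to 0.507. The tables give no strand for the units.

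By the distance of log2(FPKM + 1) over the 4 libraries, the genes most like Fgfr1 among 23409 were Tmem189, Dusp3 and Nedd9 (distances 0.141 to 0.187), and those most like Fgfr4 were Slc7a2, Serpine2 and Zbtb20 (0.568 to 0.822).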
